A study of Mus musculus with 48 samples.

Results

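The mitochondrial ribosomal protein genes were taken as every probe of the array whose gene symbol was Mrpl or Mrps followed by a number, which gave 106 of 55681 probes and 76 genes. The products of 49 of these genes (67 probes) belong to the large subunit, those of 26 genes (37 probes) to the small subunit, and Mrps36 (2 probes) was placed in neither. Mrps30 and Mrps18a were counted with the large subunit, where their products sit despite their names. A probe was tested in a tissue when it was well above background on all 24 arrays of that tissue and had a processed signal over 50 on at least 2 of them, which held for 90 member probes of 71 genes in blood and for 104 member probes of all 76 genes in the medial prefrontal cortex (mPFC).

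RNA of blood cells and of the mPFC from the same 24 mice was measured on 48 one-color mouse arrays from Agilent, so that each mouse gave 1 array of blood and 1 of mPFC. Tissue was taken under pentobarbital anesthesia. All mice were female C57BL/6J animals at 17 weeks of age, and each group held 6. Control mice were sham operated and not stressed, CUMS mice were sham operated and exposed to chronic ultra-mild stress, OVX mice were bilaterally ovariectomized and not stressed, and OVX+CUMS mice received both. Blood was spun and the whole pellet lysed, so red cells, platelets and all white cells contributed RNA, and the mPFC was dissected from slices with all of its cell types. In both kinds of bulk sample, fewer cells of a type and less RNA per cell cannot be told apart.

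The mitochondrial ribosome translates the few messenger RNAs of the mitochondrial genome, all of which encode core subunits of the respiratory chain and ATP synthase. Its RNA comes from mitochondrial DNA, but each of its proteins is encoded in the nucleus, made in the cytosol and imported. Some of these proteins have a counterpart in the bacterial ribosome and others arose only in mitochondria. The small subunit decodes the message, whereas the large subunit forms peptide bonds and sits on the inner membrane. Both tissues rely on it, but mature mouse red cells hold no mitochondria, and neurons are rich in them.

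Groups and slides overlapped only in part. Each tissue filled 3 slides of 8 arrays in the same layout: slide 1 held 6 control and 2 CUMS mice, slide 2 held 4 CUMS and 4 OVX mice, and slide 3 held 2 OVX and 6 OVX+CUMS mice. Control and OVX mice therefore shared no slide, whereas stressed and unstressed mice shared all of them. The 75th percentile of the processed signal lay between 54.9 and 192 on the blood arrays and between 572 and 689 on the mPFC arrays. The scanner software marked 21 of 24 blood arrays and 0 of 24 mPFC arrays for evaluation. Erythroid markers were detected in blood with all genes of their list, and 5 of 8 neuron markers were not. All neuron and astrocyte markers of the lists were detected in the mPFC, where 5 of 8 B cell markers and 7 of 10 neutrophil markers were not.

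Promoter windows of 67 of the 76 member genes were held by the RefSeq table (build GRCm38.p6, 250 bases before to 50 bases after the start). These windows were searched on both strands for the letters of motifs named for regulators of nuclear genes for mitochondrial proteins, NRF1 (GCGCATGC), ETS factors such as Gabpa (CCGGAAG) and YY1 (AAGATGGCG). The ETS letters were found for 24 member genes (35.8%) against 9.9% of all 27025 genes in the table. The NRF1 letters were found for 8 (11.9%) against 3.0%, and the YY1 letters for 8 (11.9%) against 1.6%. At least 1 of the motifs was present for 22 of 43 large subunit genes (51.2%), 12 of 23 small subunit genes (52.2%), 51.6% of 64 cytosolic ribosomal protein genes and 40.6% of 69 nuclear genes of oxidative phosphorylation, against 13.6% of all genes in the table. NRF1 letters were found for 7 of 43 large subunit genes (16.3%) and for 1 of 23 small subunit genes (4.3%), counts too small to compare the subunits. The windows below are 30 bases on the gene's strand with the motif or its reverse complement in capitals, and are shown because their genes carry the results that follow.
Mrpl36, YY1 (chr13:73330967-73330996, plus strand): acgtgaccttaCGCCATCTTtcttcctggc
Mrps11, YY1 (chr7:78783012-78783041, plus strand): cctacgggcgcCGCCATCTTtctgtcttcc
Mrpl10, NRF1 (chr11:97041437-97041466, plus strand): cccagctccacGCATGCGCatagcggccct
Mrpl32, NRF1 (chr13:14613085-14613114, minus strand): aagaggggcctGCGCATGCtctgagcgagg
Mrpl27, ETS (chr11:94653724-94653753, plus strand): tgtccgcaagacCCGGAAGtagatctatcc
Mrps12, ETS (chr7:28741803-28741832, minus strand): taaggaggaaccCCGGAAGgggctggaggt
Mrps16, ETS (chr14:20393547-20393576, minus strand): cttgggggcgctCTTCCGGgcttcaggctc
Mrpl3, ETS (chr9:105053237-105053266, plus strand): ttgagaaacggaCCGGAAGtggcccggctg
Mrpl32 held the NRF1 letters at several places in its window. The letters searched were absent from the windows of Mrpl2, Mrps10, Mrpl12 and Mrpl47, and no window was held for Mrpl38, Mrps34 or Mrpl15.

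In blood, most mitochondrial ribosomal protein genes were higher in ovariectomized than in sham-operated mice. Values are log2 processed signals minus the array's 75th percentile (normalized log2 signal), and the OVX effect is the mean of the OVX and OVX+CUMS groups minus the mean of the control and CUMS groups. Of 90 member probes, 53 were higher and 4 lower at an adjusted p under 0.05 (limma, Benjamini-Hochberg over all 20768 probes tested in blood), whereas 27.4% of all probes were higher and 27.7% lower. The median effect was 0.23 over the members and 0.04 over all probes. Counted by gene with the brightest probe of each, 47 genes were higher, 4 lower and 20 not called. No member was called when slide was added as a block, where the median member effect was 0.02, none of all probes was called, and 1 member had an unadjusted p under 0.05. OVX and slide can therefore not be told apart in blood. Within OVX mice alone, the 2 on slide 3 and the 4 on slide 2 differed for 6.03% of all probes and for 1 member. With arrays shifted by the spike-in probes instead, the median of all probes was 0.40 for OVX and -0.32 for CUMS. On this shift 81 members were higher and 1 lower for OVX, against 58% of all probes called in either direction. For CUMS no member was higher and 82 were lower, against 45.3% of all probes called.

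Large and small subunits shared this direction. Of the large subunit probes, 36 of 57 were higher and 1 was lower, with a median OVX effect of 0.27, and of the small subunit probes 16 of 31 were higher and 3 lower, with a median of 0.20. The large subunit members held as specific to mitochondria had 16 of 23 probes higher and none lower at a median of 0.31. Those with a bacterial counterpart had 20 of 34 higher and 1 lower at 0.26. In the small subunit the corresponding counts were 6 higher and 1 lower of 12 (0.21) and 10 higher and 2 lower of 19 (0.19). The list placed Mrpl47 with the mitochondria-specific members although its product corresponds to bacterial L29. The other ribosome of the cell behaved differently in count: 28 of 176 probes for cytosolic ribosomal proteins were higher and 30 lower (median 0.05), and among nuclear genes of oxidative phosphorylation 34 of 118 were higher and 31 lower. The difference between families was not tested.

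**Figure D1:**
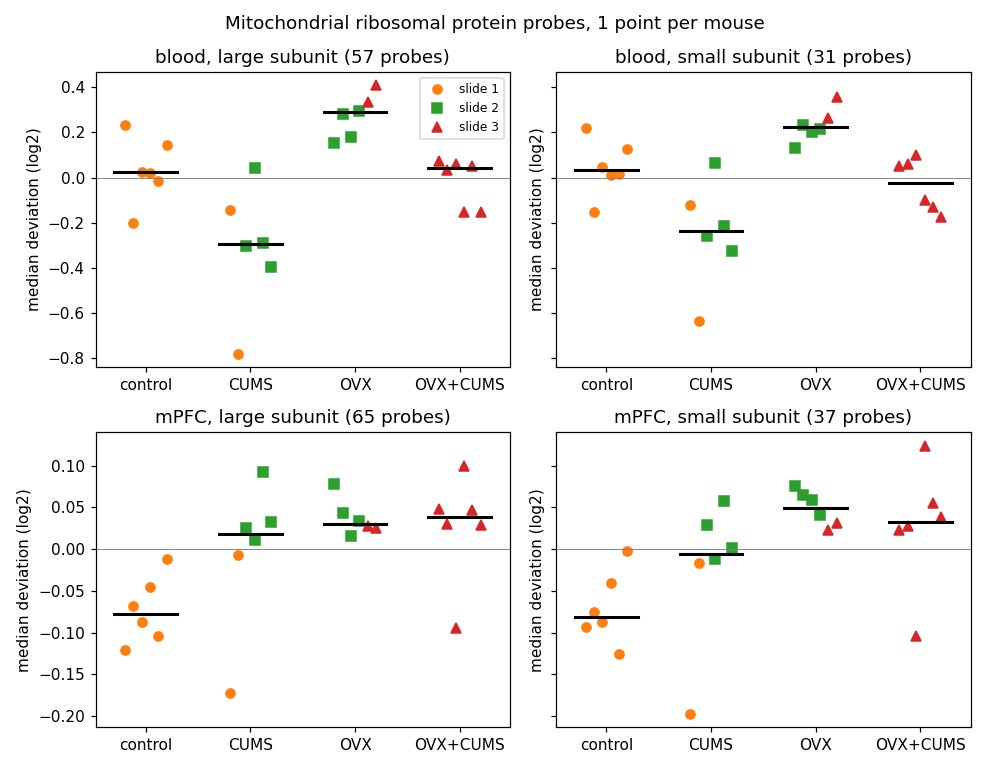
Median deviation of the member probes from their mean over the tissue's 24 arrays (y axis, log2), with 1 point per mouse by group (x axis), for large and small subunit probes in blood and mPFC. Colors and shapes mark the slide, and bars the group median. In blood the large subunit medians of OVX mice lay between 0.15 and 0.41 and those of CUMS mice between -0.78 and 0.04.

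The shift was visible mouse by mouse in the plot of median deviations. In blood, the large subunit median lay between -0.20 and 0.23 in control mice, between -0.78 and 0.04 in CUMS mice, between 0.15 and 0.41 in the OVX group and between -0.15 and 0.08 in OVX+CUMS mice. OVX mice did not overlap CUMS or OVX+CUMS mice, and OVX+CUMS mice lay within the range of control mice. The small subunit moved with it: the large minus the small subunit median of a mouse stayed between -0.14 and 0.18 on the blood arrays. After removal of the group means, the median correlation between 2 member probes over the 24 blood arrays was 0.54, with 85.5% of the pairs above 0, and that between a member and any other probe was 0.04. The pairs shared arrays, depth and normalization, so this is a description. It was 0.57 within the large subunit, 0.50 within the small subunit and 0.53 between them.

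Mrpl36, the counterpart of a small zinc-binding bacterial protein of the large subunit, had the largest positive OVX effect in blood among the brightest probes of the genes called. Its normalized log2 signal was 1.47, 1.85 and 1.97 (lowest, median and highest of 6 mice) in control mice, 0.77, 1.58 and 1.93 in CUMS mice, 2.04, 2.20 and 2.45 in the OVX group and 1.88, 2.03 and 2.18 in OVX+CUMS mice. All OVX mice lay above all control and all CUMS mice. The OVX effect was 0.50 (SE 0.10, adjusted p = 0.000542 in limma), or 1.41-fold, and 0.03 (SE 0.20) with slide as a block. Mrps12, which lines the decoding center of the small subunit, was at 1.52, 1.74 and 1.94 in control mice, 0.88, 1.72 and 2.23 in CUMS mice, 2.08, 2.24 and 2.43 in the OVX group and 1.76, 1.99 and 2.13 in OVX+CUMS mice. Control and OVX mice did not overlap. Its OVX effect was 0.41 (SE 0.10, adjusted p = 0.00262), which became -0.06 (SE 0.20) with the slide block. Mrpl27 (0.44), Mrps31 (0.43) and Mrpl28 (0.42) completed the 5 largest increases.

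Among members with known positions in the ribosome, the stalk protein Mrpl12, which recruits translation factors, was at 0.86, 1.09 and 1.23 in control mice, -0.02, 0.78 and 1.11 in CUMS mice, 1.24, 1.48 and 1.65 in the OVX group and 0.66, 1.02 and 1.23 in OVX+CUMS mice. OVX mice lay above every other group. The OVX effect on Mrpl12 was 0.36 (SE 0.10, adjusted p = 0.00681). Mrpl45, which contacts the inner membrane near the peptide exit, was at 0.75, 0.87 and 1.13 in control mice, -0.17, 0.45 and 0.89 in CUMS mice, 0.94, 1.08 and 1.46 in the OVX group and 0.74, 0.96 and 1.11 in OVX+CUMS mice. Its OVX mice did not overlap CUMS mice but overlapped both other groups, and its OVX effect was 0.40. Mrpl11 at the factor-binding site (0.37), Mrps30 (0.35), Mrpl44 (0.31) and Mrpl3 beside the peptidyl transferase center (0.26) were higher as well. In the small subunit, Mrps16 (0.33), Mrps22 (0.30) and Mrps34 (0.19) were higher, and Mrps7 had an effect of 0.12 that did not pass the test (adjusted p = 0.133). The call of Mrps22 was lost in 9 of the 24 fits that left out 1 mouse, with adjusted p up to 0.0608. The 3 paralogs of bacterial S18 were all higher, with OVX effects of 0.20 for Mrps18a, 0.30 for Mrps18b and 0.26 for Mrps18c. The brighter Mrps36 probe was higher as well (0.18), whereas the other, A_55_P2125561, had an effect of -0.11 and was not called (adjusted p = 0.124 in limma). Mrpl10, the base of the stalk, had an effect of 0.14 (adjusted p = 0.058) and passed the threshold in 4 of those 24 fits.

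The other 4 members called for OVX were lower in blood, and among them Mrpl2 and Mrps10 had the largest effects of any member. Mrpl2, a core protein of the peptidyl transferase center, was at 7.27, 7.38 and 7.87 in control mice, 6.12, 6.60 and 8.30 in CUMS mice, 5.36, 5.77 and 6.46 in the OVX group and 6.69, 6.86 and 6.99 in OVX+CUMS mice. Control mice lay above OVX and OVX+CUMS mice without overlap, and OVX mice below OVX+CUMS mice. The OVX effect on Mrpl2 was -0.83 (SE 0.19, adjusted p = 0.00123), or 0.564-fold, and -0.30 (SE 0.20) with slide as a block. Mrps10, a protein of the head of the small subunit, was at 4.75, 4.91 and 5.17 in control mice, 4.02, 4.62 and 5.73 in CUMS mice, 3.69, 3.92 and 4.04 in the OVX group and 4.25, 4.54 and 4.98 in OVX+CUMS mice. OVX mice lay below control and OVX+CUMS mice without overlap, and the effect was -0.60 (SE 0.13, adjusted p = 0.00105), or -0.06 (SE 0.22) with the slide block and -0.24 (adjusted p = 0.102) on a shift by the spike-in probes. Mrps2 (-0.31) and Mrps23 (-0.19) were also lower, although on that shift both turned to 0.04 and 0.16 and were not called. The other Mrps23 probe tested in blood, A_55_P2010858, had an OVX effect of 0.20 and was not called (adjusted p = 0.0885 in limma).

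**Figure D2:**
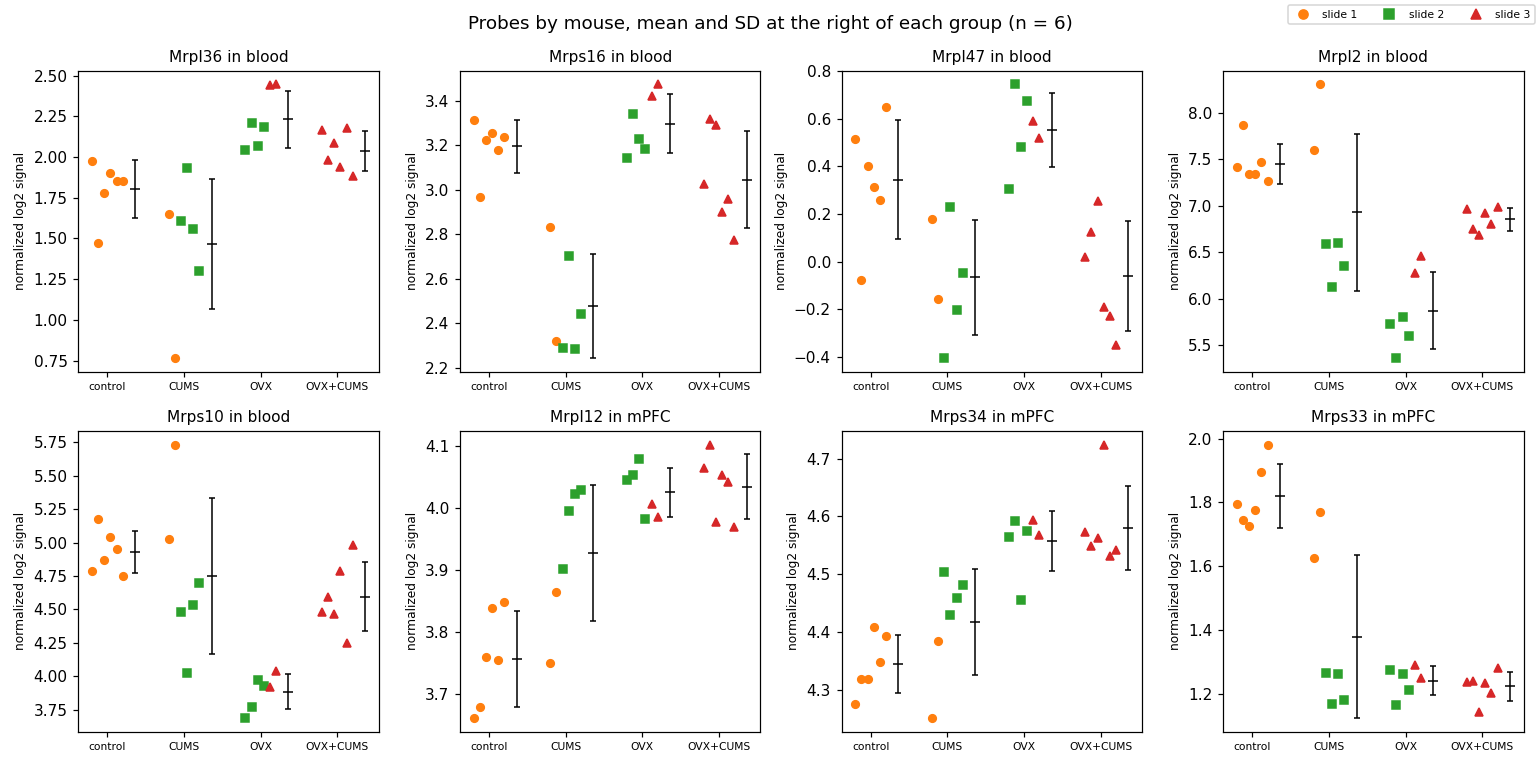
Normalized log2 signal (y axes) of 8 member probes by group, with 1 point per mouse, colors and shapes for the slide, and the mean and SD (n = 6) at the right of each group. Mrpl2 and Mrps10 were lowest in OVX mice. The Mrps33 probe in mPFC was higher in the control and CUMS mice of slide 1 than in the mice of slides 2 and 3. All control mice were on slide 1, so only CUMS mice show a slide difference within their group there.

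Markers of several cell types were called for OVX in blood, and not all in the same direction. Erythroid markers were lower after ovariectomy for 9 of 10 probes (median -0.58) and none was higher. The summed erythroid level, as log2 of the summed normalized signals, was 13.5 to 14.3 (control), 13.8 to 14.8 (CUMS), 12.97 to 13.7 (OVX) and 13.3 to 13.8 (OVX+CUMS). B cell markers were higher for 6 of 9 probes, with summed levels of 7.78 to 8.31 (control), 7.20 to 7.98 (CUMS), 8.40 to 8.68 (OVX) and 7.18 to 8.42 (OVX+CUMS). T cell markers were lower for 2 of 9 probes, NK cell markers for 2 of 7 and platelet markers for 3 of 8, and none of these was higher. Of 8 monocyte marker probes 1 was higher. No neutrophil marker of 10 was called in this comparison. Array brightness followed the members only in part. The group medians of the 75th percentile that scaled the arrays were 110 (control), 90.1 (CUMS), 139 (OVX) and 125 (OVX+CUMS). Those of the median deviation of all members were 0.03, -0.27, 0.25 and 0.02 in the same order. The 2 OVX mice of slide 3 had the highest percentiles in blood (192 and 164) and the highest member medians (0.31 and 0.36). The part of these markers and of the signal level in the member results was not tested.

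Stress had the opposite sign in blood, and this comparison was also available within slides. The CUMS effect is the mean of the CUMS and OVX+CUMS groups minus the mean of the control and OVX groups. Of 90 member probes, 67 were lower and 2 higher (limma), whereas 29.4% of all probes were lower and 19.1% higher, and the median effect was -0.29 over the members and -0.03 over all probes. By gene, 52 were lower, 2 higher and 17 not called. With slide as a block, 70 were lower and 2 higher, with a median of -0.40, whereas 49.7% of all probes were called in either direction and their median was -0.06. On slide 2, which held CUMS and OVX mice, 57 members were lower and 4 higher in the 4 CUMS than in the 4 OVX mice, against 27.9% of all probes lower and 24.4% higher, but there surgery differed as well. On slide 1 the median difference of 2 CUMS from 6 control mice was -0.44, and on slide 3 that of 6 OVX+CUMS from 2 OVX mice was -0.36. The slide 1 value rested largely on CUMS replicate 2. Its member median was -0.69 against -0.14 for replicate 1, and the difference was -0.16 without replicate 2 and -0.73 without replicate 1, with 11 and 8 members above 0. The array of replicate 2 had the lowest 75th percentile in blood (54.9), 23606 probes well above background and 206 spots left out, and the part of its signal level was not tested. Without either OVX mouse of slide 3 the difference there was -0.40 or -0.32. No probe at all was called on slide 1 or slide 3, where 7 and 5 of the 90 members lay above 0. An unadjusted p under 0.05 was held by 42 and 49 members. These counts were not taken over all probes, so they cannot be set against an array-wide rate. The median difference over all probes was -0.04 on slide 1 and -0.08 on slide 3.

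The decrease covered both subunits. Of the large subunit probes, 45 of 57 were lower and 1 higher at a median CUMS effect of -0.31, and of the small subunit probes 21 of 31 were lower and 1 higher at -0.28. Among the large subunit members held as mitochondria-specific, 22 of 23 probes were lower (median -0.35), as were 23 of 34 with a bacterial counterpart (-0.27). In the small subunit, 9 of 12 mitochondria-specific probes (-0.30) and 12 of 19 with a bacterial counterpart (-0.24) were lower. Cytosolic ribosomal protein probes were lower in 114 of 176 cases and higher in 4 (median -0.21), and probes of nuclear oxidative phosphorylation genes lower in 42 of 118 and higher in 14 (-0.12).

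**Figure D3:**
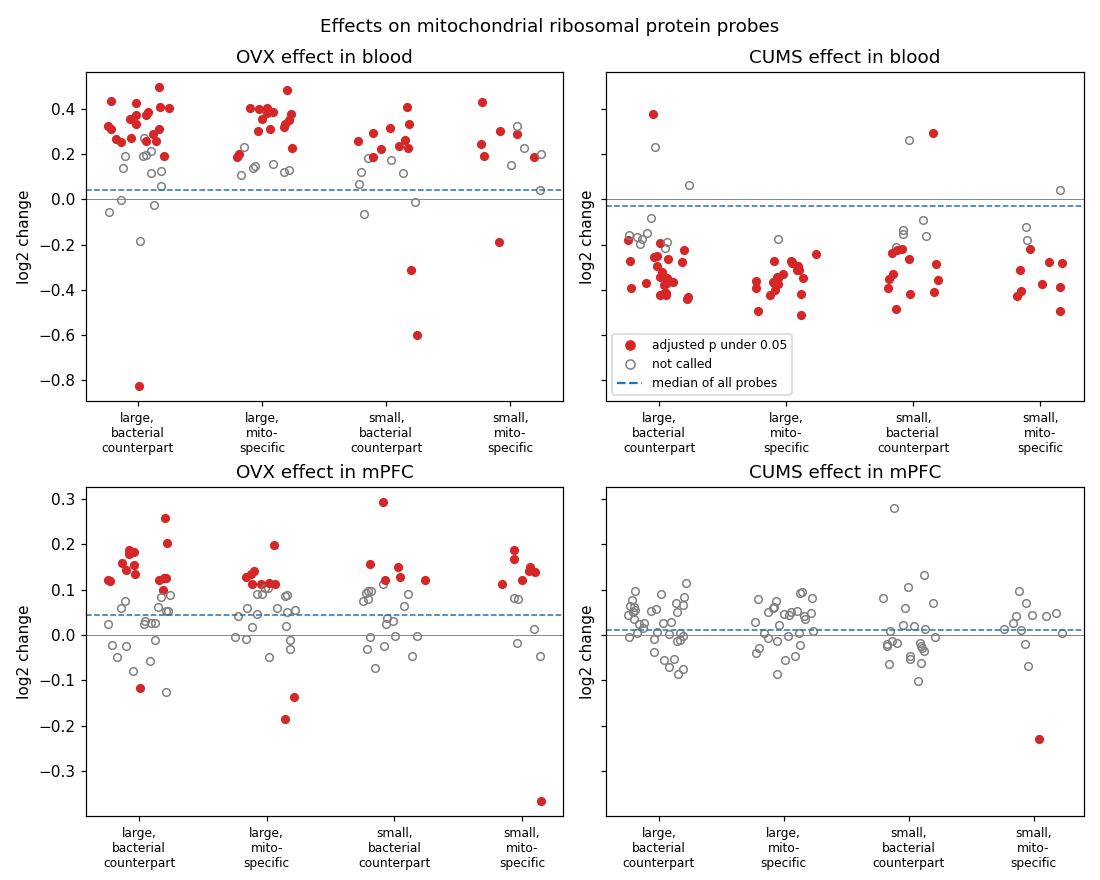
Log2 change (y axes) of each member probe for the OVX and the CUMS effect in blood and mPFC, by subunit and by whether the product has a bacterial counterpart (x axes, with the 2 Mrps36 probes left out). Filled points passed an adjusted p of 0.05 and dashed lines mark the median of all probes tested. In blood most filled points were above 0 for OVX and below 0 for CUMS, and in mPFC 1 point was filled for CUMS.

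Mrpl47 had the largest decrease with stress. It was at -0.08, 0.36 and 0.65 in control mice, -0.40, -0.10 and 0.23 in CUMS mice, 0.31, 0.55 and 0.74 in the OVX group and -0.35, -0.09 and 0.25 in OVX+CUMS mice. OVX mice lay above both stressed groups, but control mice overlapped them. The CUMS effect was -0.51 (SE 0.09, adjusted p = 0.000927 in limma), -0.47 (SE 0.14) with slide as a block, -0.33 within slide 1 and -0.62 within slide 3. Mrps16, a small subunit protein whose human gene is mutated in a respiratory chain disorder, was at 2.97, 3.23 and 3.31 in control mice, 2.28, 2.38 and 2.83 in CUMS mice, 3.14, 3.28 and 3.47 in the OVX group and 2.77, 2.99 and 3.32 in OVX+CUMS mice. All CUMS mice lay below all control and OVX mice. Its CUMS effect was -0.48 (SE 0.08, adjusted p = 0.000711), -0.62 within slide 1 and -0.40 within slide 3.

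Mrpl38, a large subunit protein specific to mitochondria, was at -0.96, -0.58 and -0.32 in control mice, -1.57, -0.92 and -0.76 in CUMS mice, -0.46, -0.35 and -0.15 in the OVX group and -1.16, -0.93 and -0.63 in OVX+CUMS mice. OVX mice did not overlap either stressed group. The CUMS effect on Mrpl38 was -0.50 (SE 0.10, adjusted p = 0.00137). Mrps26 (-0.49) and Mrpl3 (-0.44) followed. Of the ribosomal landmarks, Mrpl11 and Mrpl44 (both -0.42), Mrpl12 (-0.41), Mrps18a (-0.39), Mrpl45 (-0.37), Mrps18b (-0.36), Mrps30 (-0.34), Mrps34 (-0.31), Mrps7 (-0.29), Mrps22 (-0.28), Mrps18c (-0.24) and Mrpl10 (-0.22) were lower with stress in blood. Mrps22 lost its call in 15 of the 24 fits without 1 mouse, with adjusted p up to 0.0909. The values of Mrps12 (-0.16), Mrps36 (-0.09), Mrpl2 (0.23) and Mrps10 (0.26) did not pass the test. With slide as a block, Mrps12 was lower (-0.40, adjusted p = 0.0181) and Mrpl2 higher (0.50, adjusted p = 0.00997).

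The 2 members higher with stress were Mrpl32, a zinc-binding large subunit protein matured by a protease of the inner membrane, and Mrps2 of the small subunit. Mrpl32 was at 1.86, 2.21 and 3.08 in control mice, 2.26, 2.69 and 3.32 in CUMS mice, 1.97, 2.13 and 2.61 in the OVX group and 2.23, 2.37 and 3.20 in OVX+CUMS mice, with overlap between every pair of groups. Its CUMS effect was 0.38 (SE 0.14, adjusted p = 0.0308 in limma), lost in 6 of the 24 fits without 1 mouse and with the slide block (0.39, adjusted p = 0.103). Mrps2 was at -1.56, -1.22 and -0.91 in control mice, -1.05, -0.73 and -0.44 in CUMS mice, -1.81, -1.31 and -1.01 in the OVX group and -1.83, -1.24 and -0.95 in OVX+CUMS mice. All groups overlapped, its CUMS effect was 0.29 (SE 0.11, adjusted p = 0.0285), and 4 of the 24 fits without 1 mouse, the slide block (adjusted p = 0.0731) and the spike-in shift (-0.0007) ended the call.

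Erythroid markers were higher with stress in blood for 9 of 10 probes (median 0.50). B cell markers were lower for 7 of 9 probes (median -0.46), T cell markers for 6 of 9 and NK cell markers for 4 of 7. Neutrophil markers were higher for 2 of 10 probes and monocyte markers for 1 of 8. Their part in the member results was not tested.

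The interaction of both treatments, the CUMS effect after ovariectomy minus that after sham operation, was called for 1 of 90 members in blood against 1.42% of all probes. This was Mrpl2, with an interaction of 1.50 (SE 0.37, adjusted p = 0.0471 in limma). The OVX+CUMS mice lay above the OVX mice. Of the CUMS mice, the 2 on slide 1 were at 7.60 and 8.30 and the 4 on slide 2 between 6.12 and 6.60, below all control mice. This call was lost in 20 of the 24 fits without 1 mouse, and with slide as a block the value was -0.01 (SE 0.26). Within slide 1 the CUMS effect on Mrpl2 was 0.50 and within slide 3 it was 0.49, neither of which was called.

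In the mPFC, the effects had smaller values. For OVX, 37 of 104 member probes were higher and 4 lower (limma, adjusted over all 28360 probes tested), against 19.1% of all probes higher and 11.7% lower, and the median effect was 0.08 over the members and 0.04 over all probes. By gene, 29 were higher, 1 lower and 46 not called. With a 75th percentile taken over detected probes the split was 28 higher to 8 lower, against 26.7% of all probes called in either direction. A shift by the spike-in probes turned it to 0 higher and 21 lower, against 24.3% of all probes called. On that shift the median of all probes was itself -0.10 and that of the members -0.07. No member was called with slide as a block, which left a median of 0.00 and 1 member at an unadjusted p under 0.05, nor was any of all 28360 probes, so here too OVX and slide cannot be told apart. Within CUMS mice alone, the 2 on slide 1 and the 4 on slide 2 differed for 4 members and 16.2% of all probes in the mPFC, against 0 members and 0.0433% in blood. The large subunit medians of the 2 CUMS mice on slide 1 were -0.17 and -0.0072 in the mPFC, and those of the 4 on slide 2 lay between 0.010 and 0.092. Large subunit probes were higher in 24 of 65 cases and lower in 3, and small subunit probes higher in 13 of 37 and lower in 1. Cytosolic ribosomal protein probes were higher in 111 of 184 cases (median 0.12).

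Markers of several cell types were also called for OVX in the mPFC. The genes of the monocyte list detected there (Csf1r, Cx3cr1, Fcgr1 and Itgam) were higher for 5 of 9 probes and lower for 1 (median 0.13). Their summed level was 6.73 to 6.87 (control), 6.70 to 6.86 (CUMS), 6.70 to 6.82 (OVX) and 6.72 to 6.97 (OVX+CUMS). Microglia markers were higher for 4 of 8 probes (median 0.11), neuron markers for 2 of 11, and astrocyte and oligodendrocyte markers for 1 each of 11 and 10. Of 3 tested B cell probes 2 were lower and 1 higher, with summed levels of 0.73 to 1.07 (control), 0.15 to 0.90 (CUMS), 0.17 to 0.47 (OVX) and 0.19 to 0.76 (OVX+CUMS). NK cell markers were lower for 2 of 3 probes and T cell markers for 1 of 5. Ccr2, Ly6c2 and Ms4a6c of the monocyte list were not detected, so its counts rest on its other genes and cannot be assigned to monocytes. Ms4a1, Cd3d, Cd3g and Ncr1 were also among the defining markers not detected. The part of these markers in the member results was not tested.

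Mrps11, a small subunit protein with a bacterial counterpart, had the largest increase in mPFC among brightest probes. It was at 0.86, 1.03 and 1.24 in control mice, 0.90, 1.16 and 1.47 in CUMS mice, 1.29, 1.40 and 1.51 in the OVX group and 1.10, 1.47 and 1.55 in OVX+CUMS mice. Control and OVX mice did not overlap. Its OVX effect was 0.29 (SE 0.06, adjusted p = 0.00082 in limma) and 0.21 (SE 0.12) with the slide block. Both stalk proteins were higher: Mrpl10 was at 1.44, 1.60 and 1.66 in control mice, 1.40, 1.73 and 1.83 in CUMS mice, 1.72, 1.83 and 1.95 in the OVX group and 1.72, 1.84 and 1.93 in OVX+CUMS mice. Both ovariectomized groups lay above the control mice without overlap, and the effect was 0.20. Mrpl12 was at 3.66, 3.76 and 3.85 in control mice, 3.75, 3.95 and 4.03 in CUMS mice, 3.98, 4.03 and 4.08 in the OVX group and 3.97, 4.05 and 4.10 in OVX+CUMS mice, again without overlap between control and ovariectomized mice. The OVX effect on Mrpl12 was 0.19 (SE 0.03, adjusted p = 0.000299).

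Mrps34, specific to the mitochondrial small subunit, was at 4.28, 4.33 and 4.41 in control mice, 4.25, 4.44 and 4.50 in CUMS mice, 4.46, 4.57 and 4.59 in the OVX group and 4.53, 4.56 and 4.72 in OVX+CUMS mice. Both ovariectomized groups lay above the control mice. Its OVX effect was 0.19 (SE 0.03, adjusted p = 0.000187 in limma), and that of Mrpl38 was 0.20 (SE 0.04). In the mPFC the median correlation of member probes within groups was 0.43, against 0.06 with other probes, and large and small subunit medians of a mouse differed by -0.04 to 0.03.

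Almost no member was called for stress in the mPFC. At the adjusted threshold of limma 0 of 104 probes were higher and 1 lower, against 2.33% and 1.86% of all probes, and 19 members had an unadjusted p under 0.05. A spike-in shift called 28 members lower, against 22.5% of all probes called in either direction, with a median of -0.12 for members and all probes alike. Without CUMS replicate 1, 8 members were higher and 1 lower, against 11.5% of all probes called in either direction. The interaction was called for 3 of 104 members against 4.49% of all probes, none of them the brightest probe of its gene and named after their values were seen: Mrps33 (0.42), Mrpl15 (-0.41) and Mrpl4 (-0.27).

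The member lower with stress was a probe for Mrps33, a small subunit protein specific to mitochondria. It was at 1.72, 1.79 and 1.98 in control mice, 1.17, 1.26 and 1.77 in CUMS mice, 1.17, 1.26 and 1.29 in the OVX group and 1.15, 1.24 and 1.28 in OVX+CUMS mice. Both ovariectomized groups lay below the control mice. Its OVX effect was -0.37 (SE 0.06, adjusted p = 9.89e-05 in limma) and its CUMS effect -0.23 (SE 0.06, adjusted p = 0.0318). The 2 CUMS mice on slide 1 were at 1.63 and 1.77, near the control mice, which were all on slide 1, and the 4 CUMS mice on slide 2 were between 1.17 and 1.27, near the OVX mice. The brighter Mrps33 probe had an OVX effect of 0.01, and the dimmer one was shown after its values were seen.

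Several genes had probes that disagreed, and the first 30 of the 60 bases of such probes are given with their positions in build mm9 and their starts in the transcript as the array's design gives them. Of 24 genes with several probes tested in the mPFC, 12 had OVX effects of 1 sign, and 15 had CUMS effects of 1 sign. In blood these were 13 and 16 of 18 genes. Coding and untranslated parts were not told apart here.
Mrpl30 A_55_P2008755 (chr11:3370827-3370886, minus strand): cacagatgcacttactaaggaaaccattct
Mrpl30 A_55_P2103944 (chr1:37954938-37954997, plus strand): atcggtgaatgcaaagctgaaagtggttaa
Mrps33 A_52_P342896 (chr6:39752512-39755513, minus strand): gtctactgactcaaagtccatgaaagtgag
Mrps33 A_55_P2171715 (chr6:39752333-39752392, minus strand): agtgcatctcattatcttcccgagtattag
Mrpl41 A_52_P209172 (chr2:24829696-24829755, minus strand): gccaaaagtttgtctacaaagtggagacag
Mrpl41 A_55_P1969221 (chr2:24828035-24828094, minus strand): aaaggtggcacacagctgtctgtaactctt
Mrpl15 A_65_P15215 (chr1:4766862-4767644, minus strand): gtgttgttactacagccttctatgacccaa
Mrpl15 A_55_P2179020 (chr1:4764533-4764592, minus strand): ttgatgcactcttctgacttccatggattt
The Mrpl30 probes were placed on different chromosomes. In the mPFC, A_55_P2008755 was at 4.58, 4.64 and 4.69 in control mice, 4.41, 4.49 and 4.57 in CUMS mice, 4.36, 4.46 and 4.49 in the OVX group and 4.40, 4.44 and 4.58 in OVX+CUMS mice, with control mice above all others. A_55_P2103944 was at 3.59, 3.64 and 3.82 in control mice, 3.58, 3.85 and 3.94 in CUMS mice, 3.81, 3.86 and 3.89 in the OVX group and 3.80, 3.85 and 3.93 in OVX+CUMS mice, with overlap throughout. Their OVX effects were -0.12 (adjusted p = 0.00333 in limma) and 0.12 (adjusted p = 0.0179). The first was 0.003 under normexp background correction and the second -0.02 under the spike-in shift. Of 4 Mrpl47 probes in the mPFC, A_66_P126300 was higher (0.11, adjusted p = 0.0394) and A_55_P2016203 lower (-0.14, adjusted p = 0.0301), and the others (0.09 and -0.01) were not called. The first Mrpl47 call was lost in 12 and the second in 4 of the 24 fits without 1 mouse.

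Levels in the mPFC and blood of the same mouse differed for nearly all members, as they did for 96.3% of all probes. The members differed from all probes in direction. Of 90 probes tested in both tissues, 83 were higher in the mPFC and 5 in blood (limma on within-mouse differences, 24 mice), against 41.7% and 54.6% of all 17545 probes, and the median difference was 1.74 over the members and -0.43 over all probes. It was 1.80 for the large subunit (52 of 57 higher in the mPFC) and 1.69 for the small subunit (29 of 31). Nuclear oxidative phosphorylation genes were higher in the mPFC for 102 of 117 probes (median 2.08), whereas cytosolic ribosomal protein genes were higher in blood for 145 of 176 (median -0.72). Blood and mPFC arrays were on different slides and came from different extraction kits, so tissue, slide and extraction cannot be told apart.

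**Figure D4:**
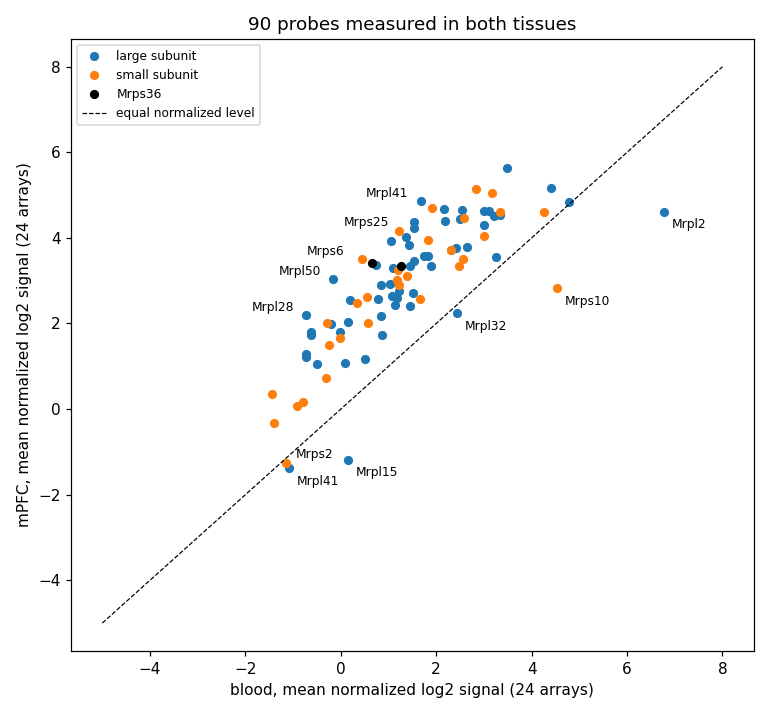
Mean normalized log2 signal of the 90 probes tested in both tissues, in blood (x axis) and mPFC (y axis), over 24 arrays each, with equal levels on the dashed line. Names mark probes more than 2.9 higher in mPFC or lower in mPFC than in blood. Most points lay above the line. Mrpl2, Mrps10, Mrpl32 and 1 probe each of Mrpl15 and Mrpl41 lay below it, as did Mrps2, whose difference was not called.

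The largest differences in favor of the mPFC were those of Mrpl50, Mrpl41 and Mrps6. Mrpl50 ranged from -0.82 to 0.36 in blood and from 2.82 to 3.14 in the mPFC, without overlap, a difference of 3.19 (SE 0.05, adjusted p = 2.28e-27 in limma) or 9.10-fold. The Mrpl41 probe A_52_P209172 ranged from 0.56 to 2.24 in blood and from 4.62 to 5.04 in the mPFC (difference 3.18). Mrps6 ranged from -0.26 to 0.79 in blood and from 3.12 to 3.78 in the mPFC (3.06). Mrps25 (2.95), Mrpl28 (2.92) and Mrpl12 (2.87) had differences of similar size.

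Mrpl2 and Mrps10, the members lowered most in OVX blood, were also the members with the largest excess in blood over mPFC. Mrpl2 ranged from 5.36 to 8.30 in blood and from 4.45 to 4.78 in the mPFC, a difference of -2.16 (SE 0.09, adjusted p = 1.48e-18 in limma), or 4.47-fold in favor of blood. Mrps10 ranged from 3.69 to 5.73 in blood and from 2.50 to 3.14 in the mPFC (-1.71). Mrpl32 had a small excess in blood (-0.19, adjusted p = 0.0152), which turned to 0.26 under normexp background correction. A spike-in shift, under which the median of all probes was 1.67, left Mrpl2 at -0.06 without a call (adjusted p = 0.548) and turned Mrps10 to 0.39, Mrpl32 to 1.91, and the 2 remaining blood-high probes to 0.77 (Mrpl15) and 1.82 (Mrpl41). Under that scaling 89 members were higher in the mPFC and none in blood, against 94.8% of all probes called in either direction.

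Probes of Mrpl41 and Mrpl15 differed with their place in the transcript. The Mrpl41 probe that starts at base 657 of its transcript was higher in the mPFC, whereas the probe at base 2318 had a difference of -0.29 (SE 0.07, adjusted p = 0.000257 in limma). The Mrpl15 probe at base 560 had a difference of 1.34 (SE 0.05) and that at base 2889 one of -1.33 (SE 0.06), so that the gene was called in both directions. Of the 14 probes tested in the mPFC but not in blood, the Mrps14 probe A_55_P2070786 was above background on no blood array and at least 1.79-fold higher in the mPFC. The second Mrps14 probe was above background on 11 of 24 blood arrays and Mrpl39 on 13, while the Mrps11 and Mrps33 probes described above failed on 1 blood array each. Probes for Mrpl9 (A_55_P2103541) and Mrpl21 (A_55_P1969231) were tested in neither tissue.

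Whether the treatments acted differently on the members in the 2 tissues was tested on the within-mouse differences. For stress, the effect was higher in the mPFC than in blood for 65 of 90 members and lower for 2 (limma), against 31.8% and 18.6% of all probes, with a median difference of 0.31. With slide as a block 50 were higher and 3 lower, with a median of 0.41, against 33.1% of all probes called in either direction and a median of 0.14. Mrpl38 had a CUMS effect of -0.50 in blood and 0.09 in the mPFC, a difference of 0.59 (SE 0.11, adjusted p = 0.00107). The corresponding differences were 0.56 for Mrpl47 and 0.54 for Mrps26, and -0.36 for Mrpl32 and -0.33 for Mrps2. The difference for Mrpl32 lost its call in 14 of the 24 fits without 1 mouse, with adjusted p up to 0.0763.

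For OVX, 4 members had a higher and 25 a lower effect in the mPFC than in blood, against 19.1% and 18.1% of all probes. Mrpl2 (0.80), Mrps10 (0.66) and Mrps23 (0.31) were the largest positive differences, and Mrpl27 (-0.46), Mrpl36 (-0.44) and Mrpl50 (-0.41) the largest negative ones. In the Mrps23 probe A_55_P2010861 the effect was -0.19 in blood and 0.12 in the mPFC, whereas the other Mrps23 probe had an effect of 0.20 in blood. None of these differences was called with slide as a block, and no member was called in limma for a difference in the interaction, where 6 had an unadjusted p under 0.05. None of all 17545 probes was called there either.

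Other genes of mitochondrial translation, from lists of known function, had more probes higher than lower for OVX and more lower than higher for stress in blood. After ovariectomy 7 of 11 probes for translation factors were higher and 0 lower, among them Mtrf1l, a release factor (0.50), and Tufm, the mitochondrial elongation factor Tu (0.24 and 0.23). Assembly and ribosomal RNA modification factors were higher for 14 of 20 probes and lower for 1, Gtpbp10 (-0.57). Aminoacyl-tRNA synthetases of mitochondria were higher for 7 of 12 and lower for 1, Wars2 (-0.68). Regulators of mitochondrial transcription and biogenesis were higher for 7 of 13, including Nrf1 (0.39), and lower for 1, Pprc1 (-0.36). Mitoribosomal proteins under other names were higher for 4 of 8, including both Dap3 probes (0.40 and 0.31), and lower for 1, an Aurkaip1 probe (-0.18). With stress, 8 of 11, 11 of 20, 8 of 12, 11 of 13 and 5 of 8 probes of these lists were lower in blood, in the same order, and 2 assembly factor probes, Ddx28 (0.55) and Nsun4 (0.37), were higher. In the mPFC, 6 of 20, 12 of 24, 6 of 22, 2 of 21 and 6 of 9 probes were higher for OVX and 1 was lower, the coactivator Ppargc1b (-0.46), and none of these probes was called for stress (limma). Over all probes, 27.4% were higher for OVX and 29.4% lower for stress in blood, and 19.1% were higher for OVX in the mPFC. With slide as a block no probe of any list was called for OVX in either tissue.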

How the data were processed

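RNA of blood and mPFC of 24 mice was measured on 48 one-color arrays. Per the file headers, the deposited scanner intensity values (processed signal, background-subtracted) came from Feature Extraction 10.7.3.1. The authors also deposited a table of log2 normalized values, which matched log2 of the processed signal minus each array's 75th percentile within 0.001 for 100% of 55249 probes with 1 spot. Depth does not apply to arrays, and the number of mice limits the precision.

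Control spots (3671 of 62976 spots) and scanner outlier spots (98 to 206 per array) were left out, spots of a probe were averaged, and log2 processed signals were shifted by the array's 75th percentile. A probe was tested in a tissue if well above background on all 24 arrays and above a signal of 50 on at least 2. limma 3.58.1 in R 4.3.3 was fitted per tissue to 4 groups, and to within-mouse mPFC minus blood differences, paired by the labels. Tests were two-sided, with Benjamini-Hochberg adjustment over all probes tested and a threshold of 0.05. The fits were checked on simulated data.

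Genes were named by their brightest probe: the 5 largest called changes each way per effect and for the tissue difference, up to 3 each way for interactions and differences of effects, fixed ribosomal landmarks, and genes whose probes were called in opposite directions. The members, lists and names were chosen with earlier results of these data known. Mrp63 (now Mrpl57) was not caught by the naming rule and was not analysed here. The alternatives tried were the replicate number or the slide as a block, fits within slides and without each mouse, a shift by 7 spike-in probes, a percentile taken from detected probes, quantile normalization, normexp background correction with an offset of 50, the authors' log2 values, an unmoderated spread, tests without a detection filter, and tests of probes detected on all 48 arrays.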

Additional observations from a re-analysis of the deposited data

Results flagged for a closer look

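Single mice stood apart from the other 5 of their group (Dixon's test) in 11 of 88 groups tested (12.5%), where chance gives about 1 in 20. In blood these were control replicate 2 for Mrpl2 (7.87, next 7.46) and for Mrpl32 (3.08, next 2.31), OVX replicate 3 for Mrpl32 (2.61, next 2.21), and OVX+CUMS replicate 5 for Mrpl32 (3.20, next 2.53) and for Mrps2 (-1.83, next -1.27). In the mPFC, OVX replicate 3 was low for Mrps34 (4.46, next 4.56) and for the Mrpl30 probe A_55_P2008755 (4.36, next 4.44), and OVX+CUMS replicate 4 was high for the same probes (4.72, next 4.57, and 4.58, next 4.46). The large subunit median deviation of OVX+CUMS replicate 3 in the mPFC was -0.095 (next 0.029), and the small subunit median deviation of CUMS replicate 1 was -0.20 (next -0.02).

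Effects that differed between the tissues by a test of the difference (limma), as mPFC minus blood, were those of OVX on Mrpl2 (0.80), Mrps10 (0.66), Mrps23 (0.31), Mrpl27 (-0.46), Mrpl36 (-0.44) and Mrpl50 (-0.41). For CUMS they were those on Mrpl38 (0.59), Mrpl47 (0.56), Mrps26 (0.54), Mrpl32 (-0.36) and Mrps2 (-0.33). In blood, the CUMS effect on Mrpl2 differed between ovariectomized and sham-operated mice by 1.50. With slide as a block this value was -0.015, and its call was lost in 20 of the 24 fits without 1 mouse. The OVX differences were not called with slide as a block.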

How the results depend on the processing

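In blood, the OVX and CUMS counts of members called stayed within 1.5 times the reported ones under every alternative except slide as a block for OVX (0) and the comparisons within slide 1 (0) and slide 3 (0) for CUMS. No probe at all was called in those fits. Leaving out 1 mouse gave 48 to 68 calls for OVX and 60 to 78 for CUMS. The blood interaction (1) became 3 under normexp and 0 with the spike-in shift, with no detection filter, with no moderation, with the slide block and with the replicate block, and ranged from 0 to 5 without 1 mouse (5 without CUMS replicate 2, 0 in 20 of 24 fits). Its share over all probes was 1.42% as reported, 5.17% under normexp, 0.0578% with no moderation and 0% in the other settings named. In the mPFC the OVX calls were 0 with the slide block and 21, all lower, with the spike-in shift, and 36 to 47 without 1 mouse. The share of all probes was 30.9% as reported, 0% with the slide block and 24.3% with the spike-in shift. The single CUMS call became 2 under normexp and with no moderation, 28 with the spike-in shift, and 0 with no filter, for probes detected on all 48 arrays, with the slide block and within slides 1 (0) and 3 (0). Over all probes 4.19% were called as reported, 5.36% under normexp, 3.89% with no moderation and 22.5% with the spike-in shift. Shares with no filter and for probes detected on all 48 arrays were 0.0449% and 5.89%. Without 1 mouse the member calls ranged from 0 to 9 (9 without CUMS replicate 1, 3 without OVX+CUMS replicate 3). All-probe shares in the last 2 fits were 11.5% and 4.1%. The mPFC interaction (3) was 0 with the spike-in shift, no filter and the slide block, 1 with the replicate block and 0 to 16 without 1 mouse (16 without CUMS replicate 1, 5 without CUMS replicate 2, 1 without control replicate 3, 0 in 14 fits). Its all-probe share was 4.49% as reported, 0% with the spike-in shift and the slide block, and 2.18% with the replicate block. Without CUMS replicate 2 and without control replicate 3 the share was 11.8% and 2.64%. The tissue difference gave 88 to 94 calls without 1 mouse. The tissue difference of the OVX effect (29) gave 45 with quantile normalization, 48 with the percentile over detected probes, 84 with the spike-in shift, 14 with no filter, 0 with the slide block and 19 to 39 without 1 mouse (39 without CUMS replicate 1, 19 without CUMS replicate 2). All probes moved as well, from 37.2% called as reported to 45.1%, 42.7%, 65.8%, 19% and 0% in the settings before the slide block and with it, in that order. The tissue difference of the CUMS effect (67) gave 44 with the spike-in shift, 43 with no filter and 54 to 75 without 1 mouse. Of all probes 50.4% were called for it as reported, 25.1% with the spike-in shift and 12.6% with no filter. The cause of these changes was not tested.

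Under the spike-in shift the sign turned for OVX in blood for Mrps2 (0.041) and Mrps23 (0.16), for CUMS in blood for Mrps2 (-0.000703) and Mrpl2 (-0.063), for OVX in the mPFC for Mrpl30 A_55_P2103944 (-0.024), Mrpl47 A_55_P2065249 (-0.057) and A_66_P126300 (-0.029), for the tissue difference for Mrps10 (0.39), Mrpl32 (1.91), Mrpl15 A_55_P2179020 (0.77) and Mrpl41 A_55_P1969221 (1.82), and for the OVX tissue difference of Mrps23 (-0.19). With slide as a block it turned for OVX in blood for Mrps12 (-0.063), Mrps18b (-0.019), Mrps36 (-0.12), Mrpl12 (-0.022), Mrpl45 (-0.038), Mrpl44 (-0.012) and Mrps22 (-0.045), for the blood interaction of Mrpl2 (-0.015), for OVX in the mPFC for Mrpl30 A_55_P2103944 (-0.025), Mrpl47 A_55_P2065249 (-0.35) and A_55_P2073845 (0.026), and for the OVX tissue difference of Mrps10 (-0.010). It also turned under normexp for Mrpl30 A_55_P2008755 for OVX in the mPFC (0.0032) and for Mrpl32 between tissues (0.26), under quantile normalization for Mrpl41 A_55_P1969221 between tissues (0.13), and without 1 of 6 mice for Mrpl47 A_55_P2073845 for OVX in the mPFC (0.0021 to 0.015, with a range over all 24 such fits of -0.019 to 0.015).

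The replicate numbers of different groups did not pair the mice: deviations of same-numbered mice correlated between -0.51 and 0.49 in blood and between -0.23 and 0.39 in the mPFC, and 7 of 24 mice in each tissue correlated best with their own number. With the replicate block, 53 members were called for OVX and 66 for CUMS in blood, and 42 for OVX and 1 for CUMS in the mPFC. Over all probes the shares were 52.1%, 45.1%, 31% and 4.57% in the same order. With no replicate block, the tissues treated as unpaired gave 88 calls for the tissue difference, 32 for its OVX and 70 for its CUMS effect, against 96.3%, 37% and 48.9% of all probes.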
